A study of Mus musculus with 25 samples.

Results

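The comparison of 20-week with 16-week salivary glands covered 10 of the 25 arrays of the series, 5 mice at each age and 1 array per mouse. All were male C57BL/6.NOD-Aec1Aec2 mice, a C57BL/6 line into which 2 intervals of the NOD mouse had been bred, Aec1 (the Idd3 region of chromosome 3) and Aec2 (the Idd5 region of chromosome 1), and which develops a disease like Sjögren's syndrome. Every mouse of both ages carries both intervals and none was treated, so the groups differ in their age label, and C57BL/6J mice were not analysed here. The mice of an age came from at least 2 litters. RNA was taken from 1 lobe of the submandibular, sublingual and parotid gland together, freed of the salivary lymph nodes, snap-frozen, and isolated concurrently for all mice. It was hybridised to an Affymetrix whole-genome mouse array, which measures each gene through 1 or more sets of short probes. The mice lived in cycles of 12 hours of light and dark, and the hour at which glands were collected is not given in the sources used here. All values below are log2 values, and a difference is the 20-week mean less the 16-week mean, so that a difference of 1 is a doubling.

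Saliva is made by acini, whose cells fold and glycosylate large amounts of protein in the endoplasmic reticulum (ER) and export it in granules, and is modified by ducts. In Sjögren's syndrome lymphocytes gather in the glands and secretion declines. Gland cells also hold a molecular clock, in which CLOCK, NPAS2 and BMAL1 (gene Arntl) drive the transcription of their own repressors, the Per and Cry genes, and of output genes such as Dbp.

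The array of 20-week mouse 3 stood apart. Its median correlation with the other 20-week arrays over the 18194 genes was 0.897, whereas that of the other 9 arrays with their own age was at least 0.974. Its signal for the 3' end of Gapdh exceeded that for the 5' end by 3.87, a sign of degraded RNA, against 0.25 to 1.21 at 16 weeks and 0.05 to 1.11 in the other 20-week mice. The other 20-week arrays were not level with those of 16 weeks either: in mice 1, 2 and 4 the same difference was 0.05 to 0.21, and that for the transferrin receptor was 1.58 to 2.01, against 0.76 to 0.92 at 16 weeks. Each result is therefore given with all arrays and without 20-week mouse 3. Some gland markers were high in every mouse. Prol1 of submandibular acini lay between 14.95 and 15.43, and the granular duct kallikrein Klk1 between 14.36 and 14.72. The carbonic anhydrase Car6, listed as parotid, lay between 14.49 and 15.58. Other markers were not: Smgc and Dcpp1, listed as both submandibular and sublingual acinar, read 3.64 and 5.28 in 16-week mouse 5. Prol1, listed as submandibular only, read 15.43 in that mouse. Some parotid markers differed widely between mice within both ages. Amy1, the salivary amylase, read 15.66, 9.93, 15.75, 15.74 and 9.80 in 16-week mice 1 to 5, and 11.50, 16.00, 14.42, 15.86 and 10.22 in 20-week mice 1 to 5, so high and low mice occurred at both ages. Car6 did not follow Amy1, at 14.49 and 14.93 in 16-week mice 2 and 5. Steady markers therefore do not show that each gland had the same share in every mouse. In such bulk RNA, fewer cells of a type and less RNA per cell cannot be told apart.

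With all arrays, 5 of 18194 genes changed between 16 and 20 weeks, 0.0275% of those tested, with 2 higher (0.0110%) and 3 lower (0.0165%) at 20 weeks. Without 20-week mouse 3, 46 genes changed, 0.253% of those tested, with 36 higher (0.198%) and 10 lower (0.0550%). After quantile normalization of the same arrays the split was 93 higher and 77 lower. With 1 further array left out, it ran from 7 higher and 3 lower without 20-week mouse 1 to 339 higher and 58 lower without 20-week mouse 5. The 5 genes of the first set were all in the second. The other 41 kept their sign with all arrays, and 38 of the 46 had an unadjusted p under 0.05 there, as did 7.22% of all genes. The sizes of change ran from 1.2-fold to 9.02-fold. In 35 of the 46 genes the values of the 4 remaining 20-week mice did not overlap those of the 5 16-week mice. Over all genes tested, 291 (1.60%) lay wholly above and 85 (0.467%) wholly below in that sense. The 46 were picked on these same values, so this contrast follows from the choice. With all 5 values of each age, 70 of all genes (0.385%) lay wholly above and 49 (0.269%) wholly below at 20 weeks. The median difference over all genes was 0.037 with all arrays and 0.003 without mouse 3, and over genes with an expressed probe set 0.01 and 0.04. Of 9 reference genes measured none changed, but without mouse 3 their differences were above 0 in 8 of 9, with a median of 0.20. With the 3' to 5' difference of Gapdh as a covariate, 19 of the 46 genes still passed, and the part of RNA quality in the others was not tested further. No gene passed in a fit of the 10 arrays alone, where 299 genes were higher and 270 lower at an unadjusted p under 0.05 (889 and 317 without mouse 3), by limma in each case.

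**Figure D1:**
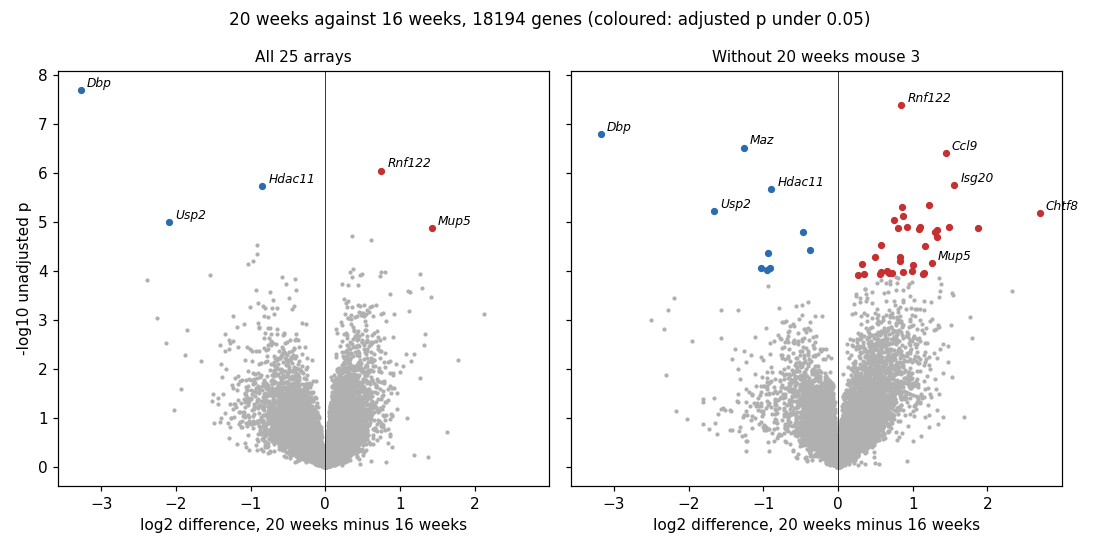
The difference between 20 and 16 weeks (log2, x axis) against the unadjusted p (-log10, y axis) of 18194 genes, 1 point per gene, with all arrays on one side and without 20-week mouse 3 on the other, and coloured where the adjusted p is under 0.05. Dbp lies farthest to the left in both panels, and the coloured points number 5 and 46.

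Dbp, an output gene of the clock that encodes an activator binding D-box sequences, showed the largest change. It read 10.98, 10.12, 10.83, 10.81 and 10.79 in 16-week mice 1 to 5, and 6.42, 6.43, 7.03, 8.90 and 8.39 in 20-week mice 1 to 5. All 20-week mice lay below all 16-week mice, and mice 1, 2 and 3 lay lowest. The difference was -3.27 (SE 0.38), a 9.68-fold fall (adjusted p = 0.000362), and -3.17 (SE 0.41) without mouse 3 (adjusted p = 0.00144). Its means at 4, 8 and 12 weeks were 10.08 ± 0.41, 10.76 ± 0.46 and 10.47 ± 0.30 (SD, n = 5), close to the 10.71 ± 0.34 of 16 weeks. Both probe sets of Dbp gave it, with differences of -3.51 and -3.04. Dbp passed in 21 of 22 other settings with all arrays and in 20 of 21 without mouse 3, the exception being the fit of the 10 arrays alone. Since the hour of collection is not given, its part in the values of Dbp and the other clock genes was not tested.

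Usp2, which encodes a deubiquitinase whose transcript is known to follow the clock, read 9.83, 9.35, 9.68, 9.55 and 9.46 at 16 weeks, and 7.58, 7.31, 5.76, 8.41 and 8.35 at 20 weeks. The groups did not overlap, and mouse 3 was the lowest. The difference of -2.09 (SE 0.36, adjusted p = 0.0462) became -1.66 (SE 0.27, adjusted p = 0.0121) without mouse 3. The means of Usp2 at 4, 8 and 12 weeks were 8.0, 9.21 and 9.26, beside 7.48 at 20 weeks (7.91 without mouse 3). Unlike that of Dbp, its 4-week level was thus also low. Cry2, a repressor of the clock, read 7.55, 6.88, 7.13, 7.03 and 7.18 at 16 weeks and 6.05, 5.84, 6.26, 6.81 and 6.25 at 20 weeks, again without overlap. Its difference was -0.91 (SE 0.17, adjusted p = 0.0672) with all arrays and passed without mouse 3 (-0.92, SE 0.19, adjusted p = 0.0467). The means of Cry2 at 4, 8 and 12 weeks were 6.81, 7.34 and 7.32, beside 6.24 at 20 weeks.

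The bases just before the transcription start of Dbp are shown because this gene moved most, and those of Tef because they hold the sequence to which clock activators are known to bind. The E-box CACGTG, in capitals, was searched on both strands of the window from 250 bases before to 50 after each RefSeq start (GRCm38.p6). It was present in 7.15% of 32851 windows, and in those of 5 of the 17 clock genes that have a window (Bhlhe41, Ciart, Cry1, Per1 and Tef). No match in Dbp says only that these letters are not in its window. The D-box TTANGTAA was in 2.32% of windows and in 1 of the 17 genes, Per3.
Dbp, chr7:45705147-45705246, plus strand, bases 100 to 1 before the start: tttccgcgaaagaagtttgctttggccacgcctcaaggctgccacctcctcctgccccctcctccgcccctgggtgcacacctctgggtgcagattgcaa
Tef, chr15:81802509-81802588, plus strand, bases 164 to 85 before a start: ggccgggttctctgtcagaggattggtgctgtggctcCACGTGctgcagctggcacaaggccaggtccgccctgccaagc

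Of 20 circadian clock genes measured, 3 fell without mouse 3 (Dbp, Usp2 and Cry2), of which 2 (Dbp and Usp2) also fell with all arrays, and none rose. Over all genes, 0.0550% fell without mouse 3 and 0.0165% with all arrays. At an unadjusted p under 0.05, 4 were higher and 7 lower in both sets of arrays, whereas 3.83% of all genes were higher and 3.39% lower with all arrays and 7.61% and 3.29% without mouse 3. The median difference of the list was -0.10 with all arrays and -0.11 without mouse 3. With all arrays, the 20-week values of 4 of the 20 genes (Dbp, Usp2, Cry2 and Tef) lay wholly below those of 16 weeks. None lay wholly above. Over all genes these shares were 0.269% and 0.385%. Tef, an activator of the same family as Dbp, read 9.70, 8.92, 9.89, 9.75 and 9.86 at 16 weeks and 7.65, 7.80, 7.27, 8.90 and 8.79 at 20 weeks. Its groups did not overlap, but the difference of -1.54 (SE 0.33) did not pass (adjusted p = 0.111, and 0.107 without mouse 3). The 4-week mean of Tef, 8.26, was near the 8.08 of 20 weeks, while those of 8 and 12 weeks were 9.57 and 9.43. The clock genes that follow were chosen after their values were seen. Nfil3, the repressor that competes with Dbp for D-boxes, read 3.48, 3.47, 3.25, 3.38 and 3.38 at 16 weeks and 6.16, 5.01, 4.34, 3.47 and 5.08 at 20 weeks. In 4 of 5 20-week mice it lay above every 16-week mouse, while mouse 4 did not (difference 1.42, adjusted p = 0.17, and 1.54, adjusted p = 0.0766, without mouse 3). The means of Nfil3 at 4, 8 and 12 weeks were 4.11, 3.38 and 3.45, beside 4.81 at 20 weeks. Npas2, a partner of BMAL1, read 3.30 to 3.45 at 16 weeks and 4.80, 4.24, 4.20, 3.32 and 3.55 at 20 weeks, with differences of 0.68 and 0.64 that did not pass (adjusted p = 0.188 and 0.159). Clock had differences of 0.44 and 0.56, and Arntl, which had no expressed probe set, 0.37 and 0.43, where only mouse 1, at 4.00, stood above the rest. Per2, a repressor, had -0.79 and -0.92, Nr1d1, the repressor of Arntl, -1.33 and -0.76, and Per1 -0.09 and -0.06, none of which passed. In mice 1 and 2 of 20 weeks Dbp and Cry2 were lowest, and Nfil3 and Npas2 were among the highest, while in mouse 4 Dbp, Cry2 and Tef were the highest of their age and Nfil3 and Npas2 the lowest.

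**Figure D2:**
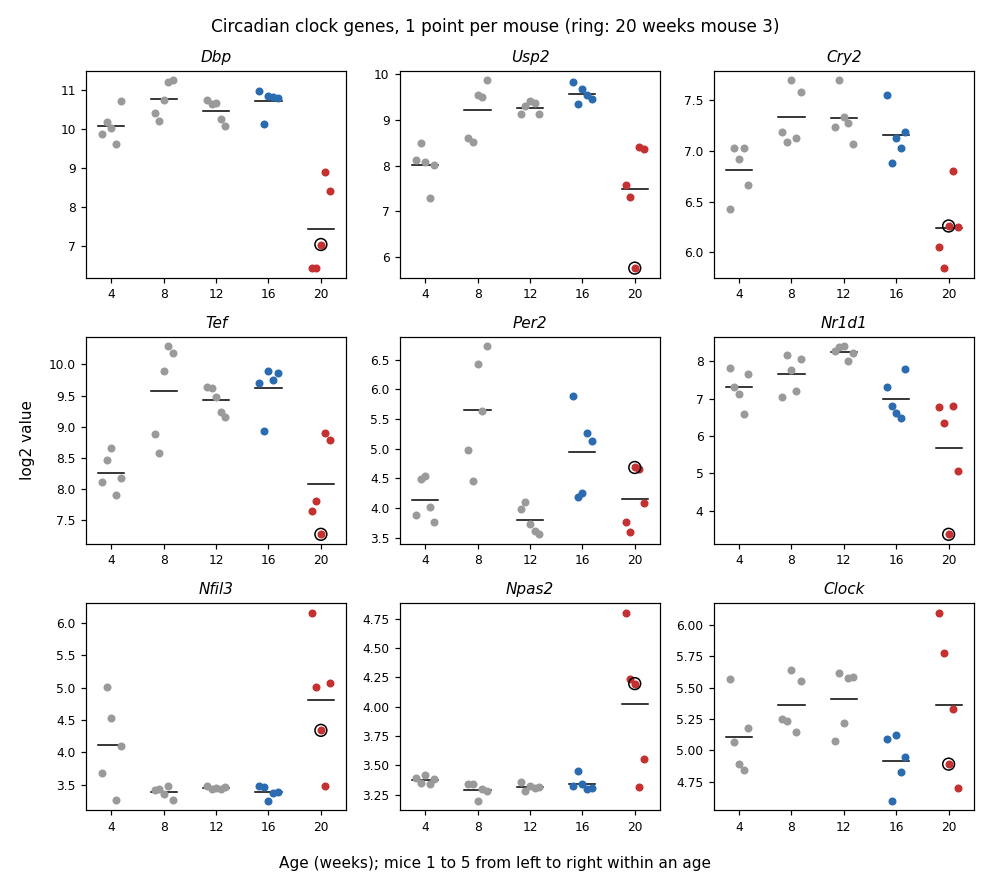
Log2 values of 9 circadian clock genes (y axis) by age in weeks (x axis), 1 point per mouse with mice 1 to 5 from left to right, the age mean as a bar and a ring around 20-week mouse 3. Dbp, Usp2, Cry2 and Tef do not overlap between 16 and 20 weeks, and Nfil3 and Npas2 spread upward at 20 weeks.

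Beside the clock genes, 2 genes passed with all arrays and did not overlap. Hdac11, a histone deacetylase, read 8.44, 8.07, 8.02, 8.21 and 7.98 at 16 weeks and 7.14, 7.23, 7.51, 7.35 and 7.27 at 20 weeks. It fell by 0.84 (SE 0.13, adjusted p = 0.0114), and by 0.89 without mouse 3 (adjusted p = 0.0064). Its probe sets differed in size, with -1.43 and -0.25 with all arrays, and -0.99 and -0.80 without mouse 3. Rnf122, a RING-type ubiquitin ligase, read 4.31, 4.94, 4.78, 4.80 and 4.81 at 16 weeks and 5.91, 5.44, 5.09, 5.57 and 5.39 at 20 weeks. It rose by 0.75 (SE 0.11, adjusted p = 0.00809), and by 0.85 without mouse 3 (adjusted p = 0.00076). The means of Rnf122 at 4, 8 and 12 weeks were 4.81, 4.84 and 4.8, with a narrow SD of 0.014, 0.089 and 0.015. In both genes mouse 3 was the 20-week mouse nearest to the 16-week group.

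The fifth gene was Mup5, one of the major urinary proteins, small carriers of pheromones. It read 12.12, 10.87, 11.28, 11.20 and 11.71 at 16 weeks and 12.63, 13.20, 13.52, 12.87 and 12.07 at 20 weeks. The groups overlapped through 20-week mouse 5. Its difference was 1.42 (SE 0.25, adjusted p = 0.0487), and 1.26 (adjusted p = 0.0413) without mouse 3, and its 4-week mean of 12.90 was as high as that of 20 weeks. The Mup genes are near-identical copies, so the probe set may read other members of the family. It passed in 10 of 22 other settings with all arrays, and Usp2 in 11 of them.

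Of the other genes that fell without mouse 3, Maz, a zinc finger transcription factor, read 5.15, 5.53, 5.77, 5.43 and 5.15 at 16 weeks and 4.07, 4.35, 5.30, 4.22 and 3.94 at 20 weeks. The 4 mice other than mouse 3 lay below every 16-week mouse, and mouse 3 lay within their range. The difference was -1.26 (SE 0.17, adjusted p = 0.0018), and -1.03 with all arrays (adjusted p = 0.111). Rgcc, a regulator of the cell cycle, read 11.48, 11.01, 11.11, 11.09 and 11.69 at 16 weeks and 9.82, 9.93, 10.46, 10.55 and 11.03 at 20 weeks, overlapping in mouse 5 alone (-0.94, SE 0.19, adjusted p = 0.0473). Tfeb, the transcription factor of lysosome genes, fell by 0.46 (SE 0.08, adjusted p = 0.0139). The remaining decreases were Zfp369, a zinc finger gene (-1.02), Mocs1, of molybdenum cofactor synthesis (-0.94), and Cwc22, a spliceosome component (-0.38), where mouse 3, at 8.01, lay above every 16-week mouse.

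The 15 largest increases without mouse 3 ranged from 2.12-fold to 6.49-fold, and in 14 of them mouse 3 was the lowest 20-week mouse. Chtf8, a subunit of the complex that loads clamps in sister chromatid cohesion, led them. It read 4.66, 2.95, 3.36, 3.76 and 5.0 at 16 weeks and 6.10, 5.79, 3.78, 7.63 and 7.06 at 20 weeks (2.70, SE 0.45, adjusted p = 0.0121). Fgl2, a prothrombinase of myeloid and T cells, read 6.97, 5.74, 6.58, 6.80 and 5.05 at 16 weeks and 8.38, 8.46, 5.07, 8.07 and 7.49 at 20 weeks (1.87, SE 0.33, adjusted p = 0.0139). In both genes every 20-week mouse but mouse 3 lay above every 16-week mouse. Both also had lower means at 16 weeks, 3.95 and 6.23, than before. At 4, 8 and 12 weeks Chtf8 had means of 4.65, 4.49 and 4.32, and Fgl2 of 7.63, 7.01 and 7.42. The lysosomal protease Lgmn (1.48, SE 0.26), the glycogen-targeting phosphatase subunit Ppp1r3c (1.33), the SUMO protease Senp2 (1.33), the trans-Golgi protein Tgoln1 (1.29), the late endosome protein Stard3nl (1.22) and Cab39l, related to a partner of the kinase LKB1 (1.13), passed as well. Lgmn, Ppp1r3c, Tgoln1 and Cab39l had their lowest mean of the 5 ages at 16 weeks (4.98, 6.74, 7.14 and 8.20). Senp2 and Stard3nl did not, since their 4-week means were lower (4.21 and 5.23, against 4.75 and 5.57).

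Ostc and Selenok, both of the ER membrane, were among the same 15. Ostc, a subunit of the oligosaccharyltransferase, read 9.46, 8.82, 9.56, 9.47 and 9.40 at 16 weeks and 10.57, 10.52, 7.77, 10.36 and 10.31 at 20 weeks. Selenok, a selenoprotein of ER-associated degradation, read 9.75, 9.47, 9.74, 9.89 and 10.08 at 16 weeks and 11.08, 10.95, 8.90, 10.75 and 10.72 at 20 weeks. In both genes the 4 mice lay above all of 16 weeks and mouse 3 below all of them. The differences without mouse 3 were 1.10 (SE 0.19) for Ostc and 1.09 (SE 0.19) for Selenok, with an adjusted p of 0.0139 for each, and with all arrays 0.57 and 0.69 with an adjusted p of 0.61 for each. The values of mouse 3 thus decided both calls. Named after their values were seen, and also passing without mouse 3, were Ergic1 (0.83) and Ergic2 (0.86) of the ER-Golgi intermediate compartment, Yipf6 (0.69) of the Golgi, the mucin-type glycosyltransferase Galnt4 (0.87), and Gnpnat1 (0.72), which makes a precursor of UDP-GlcNAc. None of the 5 passed with all arrays.

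**Figure D3:**
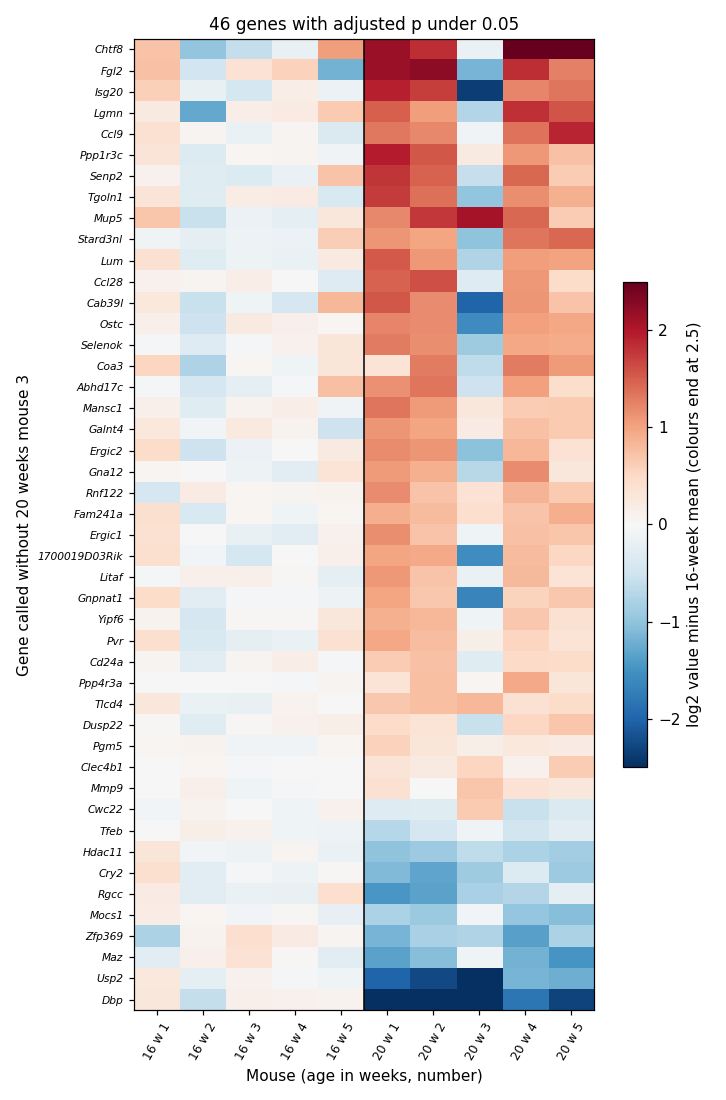
The 46 genes with an adjusted p under 0.05 without 20-week mouse 3 (vertical axis), in each of the 5 mice of 16 weeks and the 5 of 20 weeks (horizontal axis), coloured by the log2 value less the 16-week mean and ordered by their difference. In Ostc, Selenok and Isg20 the column of 20-week mouse 3 has the opposite colour to the other 20-week mice, and in Dbp, Hdac11 and Cry2 it has theirs.

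The ER folding and stress list was examined next, since it holds the chaperones and stress effectors of secretory cells. The unfolded protein response is known to act on chaperone genes through the ER stress element, CCAAT and CCACG held 9 bases apart, and on amino acid and stress genes through the amino acid response element, to which ATF4 binds. None of its 36 genes, all measured, passed in either set of arrays. At an unadjusted p under 0.05, 3 were higher and 5 lower with all arrays, and 15 were higher and 3 lower without mouse 3, beside 7.61% and 3.29% of all genes. The median difference was 0.12 with all arrays and 0.31 without mouse 3, beside the 0.20 of the reference genes in the same arrays, and with the Gapdh covariate it was 0.19 and 0.12. Stretches of 6 promoters are shown with the ER stress element (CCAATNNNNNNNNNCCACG, either strand) or, for Chac1, the amino acid response element (TGATGNAA, either strand) in capitals, from RefSeq, GRCm38.p6, on the strand of the gene.
Creld2, chr15:88819490-88819569, plus strand, bases 156 to 77 before the start: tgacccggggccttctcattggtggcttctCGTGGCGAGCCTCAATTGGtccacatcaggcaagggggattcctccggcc
Hspa5, chr2:34771995-34772074, plus strand, bases 95 to 16 before the start: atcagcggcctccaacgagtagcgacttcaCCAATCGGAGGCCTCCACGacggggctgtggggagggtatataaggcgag
Pdia6, chr12:17266461-17266540, plus strand, bases 128 to 49 before the start: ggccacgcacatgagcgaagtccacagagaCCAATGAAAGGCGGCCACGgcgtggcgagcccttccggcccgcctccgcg
Canx, chr11:50325769-50325848, minus strand, bases 175 to 96 before the start: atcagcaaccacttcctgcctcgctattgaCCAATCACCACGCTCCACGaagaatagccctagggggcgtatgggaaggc
Hsp90b1, chr10:86705607-86705686, minus strand, bases 242 to 163 before the start: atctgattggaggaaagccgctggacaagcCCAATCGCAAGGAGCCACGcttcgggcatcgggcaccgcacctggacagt
Chac1, chr2:119351013-119351092, plus strand, bases 229 to 150 before the start: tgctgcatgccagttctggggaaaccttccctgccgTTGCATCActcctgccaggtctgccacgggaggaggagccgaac

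The ER stress element was in the windows of 9 of the 31 list genes that have one (Calr, Canx, Creld2, Derl3, Dnajc3, Hsp90b1, Hspa5, Pdia6 and Syvn1), and in 0.119% of all windows. The differences of these 9 had a median of 0.43 with all arrays and 0.73 without mouse 3, and 8 of the 9 were above 0 in both. The 22 list genes with a window but no element had medians of 0.01 and 0.20, with 11 and 13 above 0. The reference genes had medians of -0.18 and 0.20. At an unadjusted p under 0.05 without mouse 3, 7 of the 9 and 6 of the 22 were higher, and 0 of the 9 and 3 of the 22 lower. These are descriptions of the members, and the element itself was not measured. The amino acid response element was in 4 of the 31 genes (Asns, Chac1, Herpud1 and Trib3) and in 3.97% of all windows.

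Creld2, an ER protein induced by ER stress, read 9.60, 8.82, 9.17, 9.15 and 9.80 at 16 weeks and 11.20, 10.73, 10.36, 10.15 and 10.59 at 20 weeks. All 20-week mice, mouse 3 included, lay above all 16-week mice, yet the difference of 1.30 (SE 0.29) did not pass (adjusted p = 0.14, and 0.0813 without mouse 3). Chac1, a glutathione-degrading enzyme and a known target of ATF4, read 8.31, 7.51, 7.75, 7.42 and 8.51 at 16 weeks and 4.70, 5.71, 5.06, 5.98 and 6.10 at 20 weeks. It too did not overlap and did not pass, with a difference of -2.39 (SE 0.52, adjusted p = 0.116, and 0.106 without mouse 3). Trib3, a pseudokinase of the same response, had differences of -0.72 and -0.86. Calr, the chaperone calreticulin, had 0.51 and 0.56, also without overlap, and Canx, the membrane chaperone calnexin, 0.46 and 0.73. Sdf2l1, of an ER chaperone complex, had 0.74 and 1.10, and Xbp1, a transcription factor of the unfolded protein response, -0.57 and -0.35. The next 5 genes were chosen after their values were seen. The chaperone BiP, gene Hspa5, read 11.54, 11.20, 11.37, 11.36 and 11.58 at 16 weeks and 12.25, 12.12, 10.47, 11.59 and 11.53 at 20 weeks, and thus overlapped (0.18 and 0.46). The chaperone Hsp90b1 had differences of 0.07 and 0.97, the disulphide isomerase Pdia6 0.51 and 0.81, the co-chaperone Dnajc3 0.43 and 0.84, and the secreted ER protein Manf 0.43 and 0.84. Asns, likewise chosen after its values were seen, an ATF4 target with the same element as Chac1, had 0.05 and 0.09, and none of these genes passed.

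**Figure D4:**
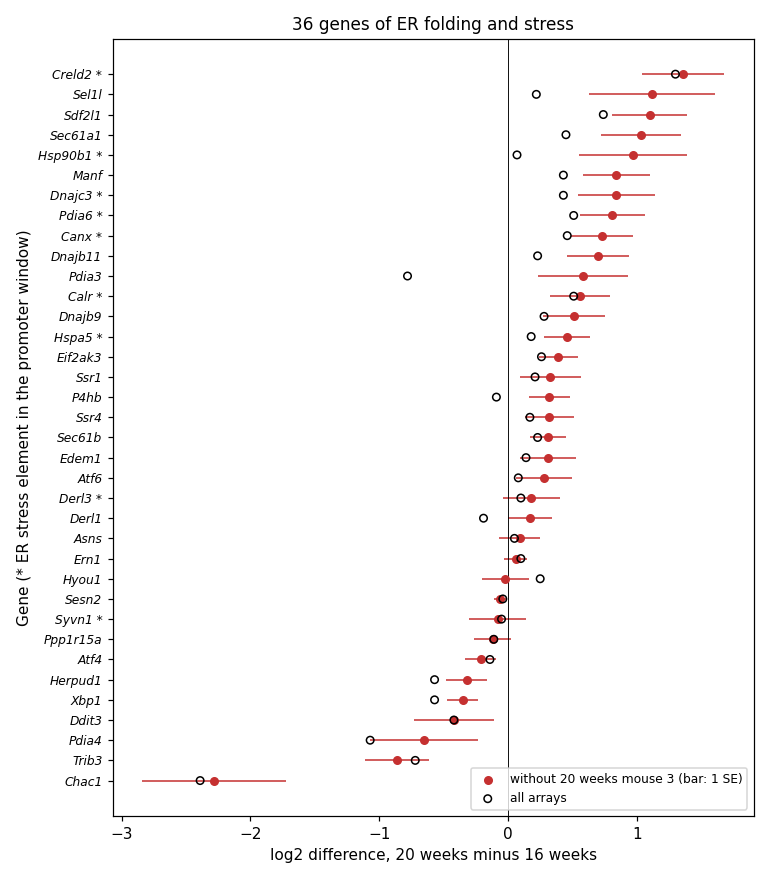
Differences between 20 and 16 weeks (log2, x axis) of 36 genes of ER folding and stress (y axis, an asterisk marks the ER stress element in the promoter window), filled without 20-week mouse 3 with a bar of 1 SE, and open with all arrays. Of the 9 genes with an asterisk 8 lie above 0 with either set of arrays, and Chac1 lies lowest at -2.28 and -2.39.

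Genes of vesicle fusion and export did not pass in either set of arrays (0 of 27). Without mouse 3, 11 were higher and 1 lower at an unadjusted p under 0.05, beside 7.61% and 3.29% of all genes, and the median of the list was 0.14, below the 0.20 of the reference genes. With all arrays 3 were higher and 1 lower, beside 3.83% and 3.39% of all genes, with a median of 0.03. Rab27b, a GTPase of granule exocytosis, had differences of 0.61 with all arrays and 0.79 without mouse 3. The granule GTPase Rab3d, at 8.79, 8.72, 5.15, 8.79 and 8.39 in 20-week mice 1 to 5 against 7.88 to 8.55 at 16 weeks, turned from -0.26 to 0.44 when mouse 3 was left out. The SNARE gene Vamp7 had 0.64 and 0.96, and the SNARE gene Stx4a, of the cell membrane, -0.89 and -0.67.

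Among genes of immunity the 2 chemokines Ccl9 and Ccl28 rose without mouse 3, 2 of 48 chemokines and receptors measured, beside 0.198% of all genes. None of the 48 passed with all arrays. Ccl9, a ligand of Ccr1 on myeloid cells, read 6.06, 5.76, 5.52, 5.75 and 5.32 at 16 weeks and 7.0, 6.88, 5.59, 7.04 and 7.58 at 20 weeks (1.44, SE 0.20, adjusted p = 0.0018, against 1.13, adjusted p = 0.143, with all arrays). Ccl28, a chemokine of mucosal epithelia, including salivary glands, that attracts IgA plasma cells, read 7.09, 7.04, 7.15, 6.96 and 6.65 at 16 weeks and 8.45, 8.59, 6.65, 8.06 and 7.44 at 20 weeks (1.16, SE 0.24, adjusted p = 0.0473). In both genes the 4 mice lay above all of 16 weeks and mouse 3 within their range. The 3 probe sets of Ccl28 gave differences of 0.40, 2.43 and 0.64. Its 16-week mean of 6.98 was below its means of 8.13, 7.86 and 7.53 at 4, 8 and 12 weeks. Ccl9 had no such dip, with 5.68 at 16 weeks and 5.65, 5.76 and 5.56 before. At an unadjusted p under 0.05, 8 genes of the list, Ccl9 and Ccl28 included, were higher and 5 lower, beside 7.61% and 3.29% of all genes. Among the 5 was Ackr4, a scavenging receptor of chemokines (-1.24, adjusted p = 0.24).

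Isg20, an interferon-stimulated exonuclease, read 7.47, 6.69, 6.44, 7.04 and 6.73 at 16 weeks and 8.82, 8.60, 4.53, 8.10 and 8.21 at 20 weeks. It was the only one of 37 interferon-stimulated genes to pass without mouse 3 (1.56, SE 0.23, adjusted p = 0.00629), beside 0.253% of all genes. The list had a median of -0.04 there, and with all arrays the Isg20 difference of 0.78 had an adjusted p of 0.61. At 4, 8 and 12 weeks the means of Isg20 were 8.13, 7.85 and 8.13, all above the 6.87 of 16 weeks. Irf1, the interferon regulatory factor, moved the other way (-0.94, adjusted p = 0.0615). Lgmn was the only one of 14 genes of MHC class II presentation to pass without mouse 3 (list median -0.34), beside 0.253% of all genes. It read 5.21, 3.71, 5.15, 5.19 and 5.64 at 16 weeks and 6.47, 6.02, 4.25, 6.81 and 6.55 at 20 weeks, while the class II chain H2-Eb1 had differences of -0.44 and -0.37. Pigr, the receptor that carries IgA across the epithelium, read 9.11, 8.65, 8.94, 8.97 and 7.91 at 16 weeks and 10.31, 10.67, 5.46, 10.54 and 8.89 at 20 weeks, a difference of 1.38 (SE 0.30) without mouse 3 that did not pass (adjusted p = 0.059). Here too the mean of 8.72 at 16 weeks lay below those of 9.86, 9.48 and 9.88 at 4, 8 and 12 weeks. No gene of the complement (26 measured), T cell and cytotoxic (31) or caspase and Bcl2 (32) lists passed.

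B cell genes followed single mice rather than the age. Cd79a, a chain of the B cell receptor, read 2.56, 2.65, 8.64, 8.52 and 2.55 at 16 weeks and 2.55, 3.47, 3.57, 2.57 and 2.67 at 20 weeks. Jchain, the joining chain of secreted IgA, read 5.31, 4.42, 10.10, 9.98 and 4.04 at 16 weeks and 3.60, 7.60, 9.72, 4.74 and 6.29 at 20 weeks. 16-week mice 3 and 4 were thus far above the other mice of their age in both genes, and of the 20-week mice, mouse 3 was highest. Of 4 B cell markers measured, the mean level ran from 2.99 to 7.85 at 16 weeks and from 2.97 to 4.96 at 20 weeks, and none passed. Their median difference was -1.05 with all arrays and -1.56 without mouse 3, and it became 0.74 and 0.41 when 16-week mice 3 and 4 were left out. The arrays of these 2 mice correlated at 0.997, the highest of any pair of the same age among the 10. Glycam1, a marker of the vessels of lymph nodes, read 7.79 and 7.12 in them, 7.91 in 20-week mouse 3, and 3.76 to 4.51 in the other mice. It was 1 of 3 measured markers of lymph node vessels and stroma, and the others had no expressed probe set. Cr2 read 4.51 and 4.89 in 16-week mice 3 and 4. Madcam1 went the other way, with 3.33 and 3.00 in them, 4.93 in 16-week mouse 2 and 5.09 in 20-week mouse 3. The part of lymph node tissue in the B cell values was not tested. Of 25 immunoglobulin and B cell genes none passed (medians -0.57 and -0.71).

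**Figure D5:**
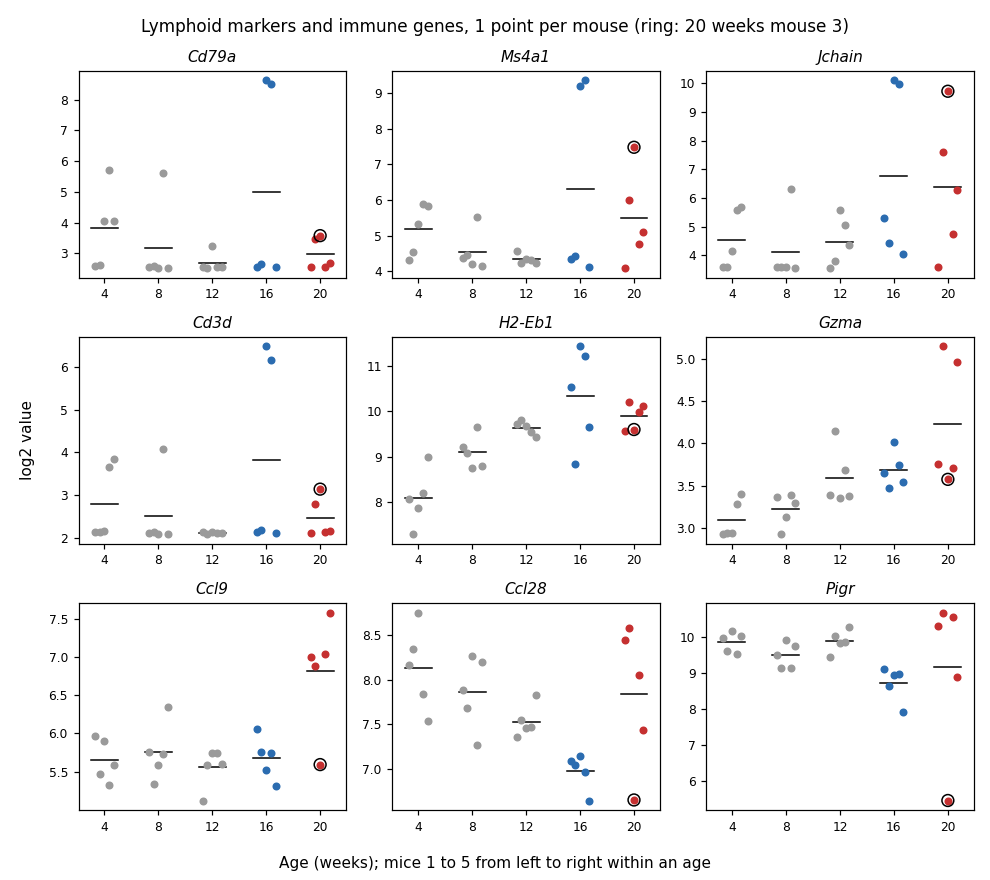
Log2 values of 9 lymphoid, presentation, cytotoxic, chemokine and epithelial genes (y axis) by age in weeks (x axis), 1 point per mouse with mice 1 to 5 from left to right, the age mean as a bar and a ring around 20-week mouse 3. Cd79a, Ms4a1 and Cd3d are high in 16-week mice 3 and 4, and Ccl9 and Ccl28 are higher in all 20-week mice but mouse 3 than in any 16-week mouse.

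Of the 8 genes that the study singled out for these ages from these same samples, so that their count is no independent evidence, 6 had a probe set of their own and none passed. Gzma, a granzyme of cytotoxic cells, read 3.65, 3.47, 4.02, 3.74 and 3.54 at 16 weeks and 3.75, 5.14, 3.58, 3.71 and 4.97 at 20 weeks, with only mice 2 and 5 above the 16-week range (0.55, and 0.71 without mouse 3, adjusted p = 0.271). H2-Eb1 read 10.54, 8.83, 11.44, 11.24 and 9.65 at 16 weeks and 9.58, 10.21, 9.60, 9.98 and 10.13 at 20 weeks, where the 20-week mice lay within the 16-week range. The class II chain H2-Ab1 had differences of -0.62 and -0.26, the class I gene H2-Q5, with no expressed probe set, 0.17 and 0.07, the complement gene C1qb -0.07 and 0.19, and the neuropeptide precursor Tac1 0.17 and 0.32.

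Lum, which encodes the collagen-binding proteoglycan lumican, was the gene of connective tissue that rose. It read 7.62, 6.93, 7.10, 7.07 and 7.45 at 16 weeks and 8.77, 8.31, 6.48, 8.27 and 8.24 at 20 weeks, with the 4 mice above all of 16 weeks and mouse 3 below them (1.17, SE 0.22, adjusted p = 0.0235, against 0.78 with all arrays, adjusted p = 0.582). The 16-week mean of 7.23 was the lowest, beside 7.97, 7.54 and 7.75 at 4, 8 and 12 weeks. Of 5 fibroblast markers Lum alone passed, beside 0.253% of all genes without mouse 3. At an unadjusted p under 0.05, 4 were higher without mouse 3, as were 7.61% of all genes, with a median of 0.60 beside the 0.20 of the reference genes. Col1a1, the main fibrillar collagen chain, had differences of 0.55 and 0.56. The 40 matrix glycoproteins had a median of 0.08 without mouse 3, with 6 higher and 0 lower at an unadjusted p under 0.05, and the 25 collagen chains 0.09, with 4 and 0, beside 7.61% and 3.29% of all genes. Both medians lay below that of the reference genes. The mean level of the fibroblast markers was 7.27 to 8.15 in the 4 mice and 6.51 to 7.56 at 16 weeks.

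Genes of water and ion transport did not pass. Of 23 genes of duct ion transport and ionocytes, the median difference was -0.18 with all arrays and -0.01 without mouse 3, with 8 and 10 above 0. Without mouse 3, 2 were higher (Car2, a carbonic anhydrase, 0.59, and the potassium channel Kcnk1, 0.74) and 4 lower at an unadjusted p under 0.05, beside 7.61% and 3.29% of all genes. The 3 lowest differences of the list were those of Ascl3, Scnn1a and Kcnq1, and Kcnk1 was named after its values were seen. Kcnq1, a potassium channel, read 7.99, 7.81, 7.56, 7.56 and 7.71 at 16 weeks and 7.01, 6.62, 6.92, 7.05 and 7.33 at 20 weeks, without overlap (-0.74, adjusted p = 0.264, and -0.72, adjusted p = 0.183, without mouse 3). Ascl3, a transcription factor of duct cells, read 8.75, 8.07, 8.45, 8.41 and 8.57 at 16 weeks and 7.31, 7.23, 3.18, 6.74 and 8.38 at 20 weeks (-1.88, and -1.04 without mouse 3). Scnn1a, the alpha subunit of the epithelial sodium channel, had -1.29 and -0.74, and the chloride channel Cftr 0.90 and 0.96, the latter without overlap. Aqp5, the water channel of acinar cells, had -0.15 and 0.04. Of 23 desmosome and tight junction genes none passed, with a median of -0.19 that became 0.24 without mouse 3, and the largest difference there was that of Cldn4, a claudin (1.79, SE 0.51, adjusted p = 0.169).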

How the data were processed

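RNA of 25 male mice, 5 per age and each a separate animal, was measured on Affymetrix arrays. The files hold log2 values as deposited by the authors, 1 for each probe set on each array, and nothing further was done to their scale. The methods name GCRMA and the submitters' processing notes RMA for background correction, normalization and summary, with no version in the sources used here. What limits precision is the signal above background and the number of mice.

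Of 45101 probe sets, 34958 with 1 gene symbol were used, while 932 with several and 9211 not listed in the annotation were left out. A probe set counted as expressed above 3.27, the median of the probe set means over all arrays. Each gene took the mean of its expressed probe sets (where it had none, of every probe set), which gave 18194 genes, of which 11696 were expressed. All 25 arrays (24 without 20-week mouse 3) were fitted with limma 3.58.1 (R 4.3.3), 1 mean per age and no covariate. The contrast of 20 with 16 weeks was tested two-sided, and p-values were adjusted over the 18194 genes by Benjamini-Hochberg. The words rose, fell, changed and passed stand for an adjusted p under 0.05. Tables and figures used Python 3.11.15, numpy 2.4.6, pandas 2.3.3 and matplotlib 3.10.9. The fit was also run on simulated data of 25 arrays and 18194 genes. There 83 of 100 genes changed by a log2 of 1 and 96 of 100 changed by 2 were recovered, with 8 false among 187 calls. The simulated noise was independent between genes and of equal spread in every array, and that spread was taken without 20-week mouse 3. The real arrays differ in quality, so these shares do not give the recovery or the false calls in the real data.

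The comparison, the 58 gene lists (20 of cell type markers and 38 functional) and the named genes were chosen with earlier results of these data known. Named genes are the 15 largest increases and decreases called in each set of arrays (where under 5 were called, the 10 of smallest p), the members of smallest p in every list (at most 4), all members of lists of 6 or fewer, the genes the study names for these ages, and Gapdh. The text says where a gene falls outside this rule. No test was made on a list. Alternatives were all or the brightest probe set, expressed genes only, quantile normalization, array weights, the replicate number as a block, a prior with trend and robust estimation, the 10 arrays alone, the Gapdh 3' to 5' difference as a covariate, single probe sets, and each array left out. Promoter windows are those of RefSeq (GRCm38.p6), and 34 of the 46 genes called had one.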

Additional observations from a re-analysis of the deposited data

Results flagged for a closer look

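Of 64 groups of 5 values examined for 1 mouse far from the rest of its age, 12 had one. Chance gives about 1 in 20 such groups, and the values of a mouse are not independent of each other. In 20-week mouse 3, whose array had the lowest correlation with the others, Ostc (7.77), Selenok (8.90), Isg20 (4.53), Fgl2 (5.07) and Lum (6.48) were far below the other 20-week mice, and Glycam1, a marker of lymph node vessels, was far above them (7.91). In 16-week mouse 2, Dbp (10.12), Tef (8.92), Ostc (8.82) and Lgmn (3.71) were far below the other 16-week mice and Npas2 (3.45) was above them. In 16-week mouse 1, Rnf122 (4.31) was the low value.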

How the results depend on the processing

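With all arrays, 2 genes were higher and 3 lower at 20 weeks. They numbered 6 and 3 with the mean of all probe sets, 1 and 2 with the brightest, 36 and 43 after quantile normalization, 382 and 277 with array weights, 0 and 0 with the 10 arrays alone, 57 and 30 with the Gapdh covariate, 9 and 3 for single probe sets, and 1 to 36 and 1 to 10 with 1 array left out. Without 20-week mouse 3, 36 were higher and 10 lower. They numbered 46 and 11, 19 and 10, 93 and 77, 319 and 181, 0 and 0, 13 and 7, and 66 and 16 in the same order, 55 and 12 over expressed genes alone, 21 and 6 with a trend and robust prior, and 7 to 339 and 3 to 58 with 1 further array left out (339 and 58 without 20-week mouse 5, 138 and 29 without 16-week mouse 5, 7 and 3 without 20-week mouse 1).

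A further set of alternatives was chosen after seeing the data. Without the 3 arrays of lowest weight (20-week mice 3 and 5, 16-week mouse 2), 143 genes were higher and 57 lower. Without 16-week mice 3 and 4 there were 1 and 1 with all arrays and 6 and 3 without 20-week mouse 3, and with those 2 mice averaged 1 and 2, and 16 and 6. None of the 46 genes changed sign in any setting, and their number still called ran from 0 with the 10 arrays alone, over 7 without 16-week mice 3 and 4, to 46 with array weights. Counting a change of sign only where either fit passed, Rab3d alone of the genes named reversed, to 0.44 with array weights. Some genes that did not pass also turned sign without 20-week mouse 3, such as C1qb (-0.07 to 0.19) and Aqp5 (-0.15 to 0.04). The causes were not tested.

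Mice of the same number were not paired: the correlations of their deviations were 0.357, -0.583, 0.0855, -0.114 and -0.133. With the replicate block, 1 gene was higher and 2 lower with all arrays, and 21 and 7 without mouse 3.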

Other observations

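Several gene groups that the glands express strongly differed little between 16 and 20 weeks. Of 15 granular duct kallikreins and growth factors none passed, and their median difference was 0.01 with all arrays and 0.03 without 20-week mouse 3. Klk1, the main glandular kallikrein, had differences of -0.02 and 0.02, and Egf, epidermal growth factor, 0.09 and 0.01. Of 15 parotid products none passed either (medians 0.20 and 0.06), while the spread of Amy1 and Dnase1 within each age was large: Dnase1, a secreted nuclease, read 5.61 to 14.15 at 16 weeks and 6.97 to 14.74 at 20 weeks. In 16-week mouse 5, Dcpp1 (5.28) and Smgc (3.64), secreted products of acini, lay below all other mice of both ages, and Adipoq, the adipocyte hormone, read 2.04 there against 5.12 to 6.76 in the other 16-week mice.

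Respiratory chain genes turned sign with the array of low correlation, with a median of -0.14 over 39 genes with all arrays and 0.11 without it, and none passed. Fatty acid oxidation genes did the same (-0.29 and 0.04 over 24 genes). Of 33 cell division genes none passed, and their medians were -0.08 and -0.10. Of 32 cytosolic ribosomal protein genes none passed (medians -0.04 and 0.01), and of 31 macrophage and myeloid genes none passed (-0.07 and -0.09).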
